A study of Mus musculus with 14 samples.

Results

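Necklace neurons are a small population of olfactory sensory neurons (OSNs) that signal through cyclic GMP rather than the cyclic AMP used by most OSNs. Those that express the receptor guanylyl cyclase GC-D carry Gucy2d, which makes cyclic GMP, Pde2a, a phosphodiesterase that breaks it down and is itself stimulated by it, Cnga3, a subunit of a cyclic GMP-gated cation channel, and Car2, carbonic anhydrase II, which converts carbon dioxide to bicarbonate. These cells are known for responses to carbon disulfide, carbon dioxide and the peptides guanylin and uroguanylin, and their axons end in a ring of glomeruli in the caudal olfactory bulb.

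The levels of these 4 genes were followed in olfactory epithelium RNA from 14 mice at postnatal day 5 (P5). The genes were taken by symbol, and all 4 stood among the 51211 symbols of both tables of normalized counts. In the first experiment, 3 Kir2.1 mice carried OMP-IRES-tTA together with tetO-Kir2.1-IRES-tauLacZ, and 3 control mice carried only OMP-IRES-tTA as heterozygotes. The driver allele sits in the Omp locus, so the inwardly rectifying potassium channel Kir2.1 was ectopically made where Omp is on, and control mice carry that modified locus too. In the second experiment, 4 wild-type pups were exposed to the odorant 2-phenylethylamine (PEA) from P0 to P5, and 4 wild-type pups served as controls. The sample records give C57BL/6 as the strain of every mouse, whereas the study's methods name CD-1 pups for the PEA experiment. The Kir2.1 mice carry in the records a name ending in Off. The labels place them at P5, however, before the weaning age at which the study began the doxycycline diet that suppresses Kir2.1.

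Each value was a normalized count, that is a read estimate per gene scaled for library size by the authors, and differences were tested on log2(normalized count + 1) by limma over all genes with a mean of at least 10, with a threshold of 0.05 on the Benjamini-Hochberg adjusted p-value. Values summed to 33049111 to 34198478 per mouse in the Kir2.1 experiment and 11476120 to 12467331 in the PEA experiment, and as these sums follow normalization, the depth of each library is unknown. Kcnj2, which encodes Kir2.1, had 986 to 1274 normalized counts in controls and 17926 to 24193 in Kir2.1 mice (log2 difference 4.18, limma SE 0.14, adjusted p = 0.000157). Omp, the marker of mature OSNs, fell from 33338 ± 2501 to 22010 ± 1319 (SD, n = 3 in each group; log2 difference -0.60, limma adjusted p = 0.0466). Its direction held in all 19 alternatives (-0.66 to -0.54 on the log2 scale), and its call was lost in 12 of them (limma adjusted p 0.0147 to 0.743). Libraries differed in vomeronasal receptor RNA, with 1 Kir control at a mean log2 level of 3.98 over 355 such genes against 1.04 to 1.13 in the other 5 mice. In the PEA experiment the same mean over 435 genes was 3.17, 2.44, 2.02 and 0.66 in the controls and 2.84, 0.89, 0.71 and 0.68 in the exposed mice. Xist RNA differed too, at log2 levels of 13.69, 13.55 and 2.01 in Kir controls and 13.80, 13.67 and 4.53 in Kir2.1 mice. In the PEA experiment it was 3.84, 3.94, 13.83 and 14.61 in controls and 14.02, 13.61, 3.19 and 13.86 in exposed mice. The study's methods name littermates as the Kir2.1 controls, but the labels do not say which mice shared a litter. For odor exposure the methods place a vial in the home cage, and the number of cages or litters is not given. Pups of a group may thus not be independent, and p-values here measure only the spread between these mice.

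No member passed the adjusted threshold in either experiment. The study's own DESeq2 tests called more genes in each experiment than limma did here, so a missing call also depends on the method. In the Kir2.1 experiment all 4 genes were tested and 0 were called, where 0.353% of the 19807 genes tested were called. In the PEA experiment 3 of the 4 genes were tested, Cnga3 having too low a mean, and 0 were called, where 0.179% of 17322 genes were. At an unadjusted limma p under 0.05, Car2 was lower in Kir2.1 mice, a direction in which 6.2% of all genes passed, against 4.93% in the higher direction. By the same rule Gucy2d and Car2 were higher in PEA-exposed mice, as 8.93% of all genes were, while 6.04% were lower. Groups that did not overlap were found for Car2 in the Kir2.1 experiment, as for 16.3% of all genes, and for Gucy2d in the PEA experiment, as for 9.32%. In bulk tissue, fewer cells of a type and less RNA per cell cannot be told apart.

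**Figure D1:**
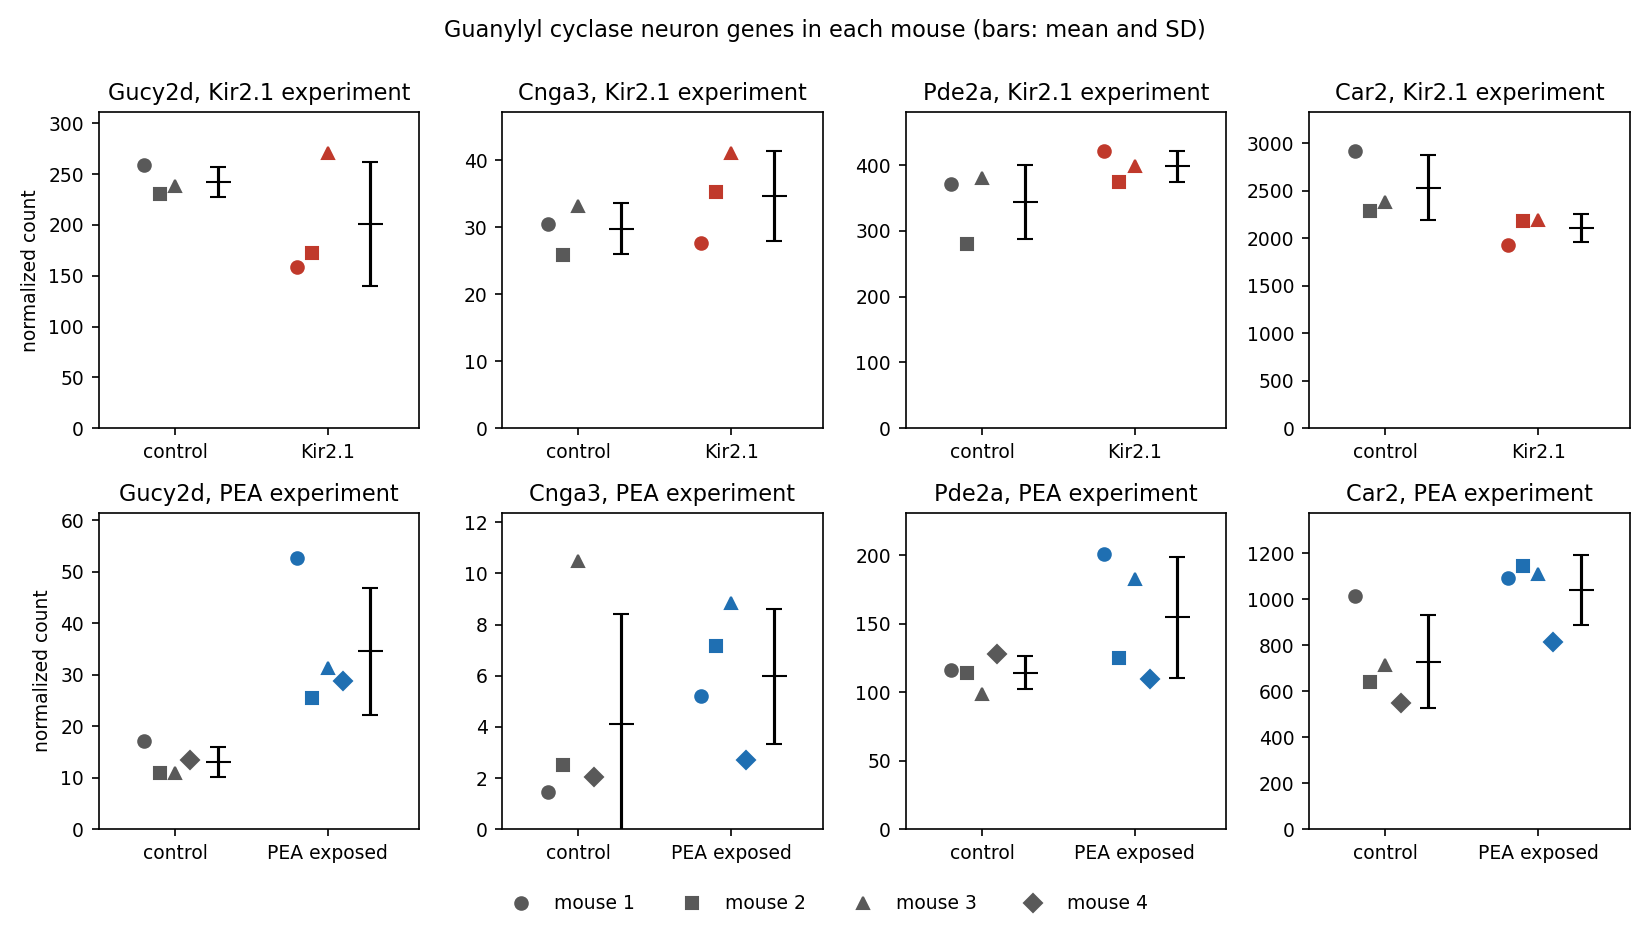
Normalized counts of Gucy2d, Cnga3, Pde2a and Car2 (vertical axes, linear and starting at 0) in each mouse of the Kir2.1 experiment (top row) and the PEA experiment (bottom row), with symbols for mice and bars for the mean and SD of each group. All 4 exposed mice lie above all 4 controls for Gucy2d, and the Kir2.1 mice lie below the controls for Car2, while every other panel shows overlap. A mouse number names a mouse within its group and is not known to pair mice between groups. The SD bar of the Cnga3 controls is cut at 0 in the PEA panel.

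Gucy2d (ENSMUSG00000074003) lies on the plus strand at chr7:98440416-98477479 (GRCm38). It is a single-pass receptor of the cyclase family. The 250 bases before its RefSeq start, at chr7:98440166-98440415 on the plus strand of GRCm38.p6, are shown in lower case because Gucy2d had the largest difference of the 4 genes.
Gucy2d: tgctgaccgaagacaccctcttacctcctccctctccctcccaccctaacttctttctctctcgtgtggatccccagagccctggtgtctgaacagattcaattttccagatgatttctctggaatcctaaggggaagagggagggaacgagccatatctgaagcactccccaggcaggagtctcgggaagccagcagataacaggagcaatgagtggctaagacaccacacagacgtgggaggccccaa
A search on both strands for the homeodomain motif TAATTA found 0 matches here and 0 in all 8 upstream windows of the 3 members with an entry (Gucy2d, Cnga3 and Pde2a). Over all 32851 RefSeq windows of this length, 4.84% held it.

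Gucy2d was higher in PEA-exposed mice. The controls had 17.1, 10.9, 11 and 13.5 normalized counts, and the exposed mice had 52.7, 25.4, 31.3 and 28.7. The control values lay just above the lower limit for testing, a mean of at least 10, and the mean over the 8 mice was 23.8. The lowest exposed mouse was above the highest control, and exposed mouse 1 stood above its own group. The means were 13.1 ± 2.94 and 34.5 ± 12.3 (SD, n = 4 in each group), a log2 difference of 1.3 with a limma SE of 0.30 and a 95% interval of 0.63 to 1.96, or 2.45-fold (1.54 to 3.90). The limma p was 0.00147 and 0.116 after adjustment over all genes, so Gucy2d was not called. An exact two-sided permutation test gave p = 0.0286, the smallest that 4 mice against 4 can give.

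In each PEA group the mouse with most Gucy2d was also the mouse with the highest vomeronasal receptor level. Without the highest such mouse of each group, the Gucy2d log2 difference was 1.21 (limma SE 0.30, adjusted p = 0.141). With only the 4 mice under a mean log2 vomeronasal level of 1, which leaves 1 control whose spread is assumed to be that of the others, it was 1.02 (limma SE 0.36, adjusted p = 0.25). With the vomeronasal level as a covariate it was 1.49. Leaving out single mice gave 1.08 to 1.42, the lowest without exposed mouse 1. The 8 mature OSN markers had in this experiment a median log2 difference of -0.08, 1 higher and 1 lower at an unadjusted p under 0.05, and summed levels of 30695 to 34636 in controls and 29870 to 35030 in exposed mice. Omp, at 6817 ± 547 and 8460 ± 1146 (SD, n = 4; log2 difference 0.31, limma adjusted p = 0.252), was the marker that was higher, and Gnal, with a log2 difference of -0.37, the marker that was lower.

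**Figure D2:**
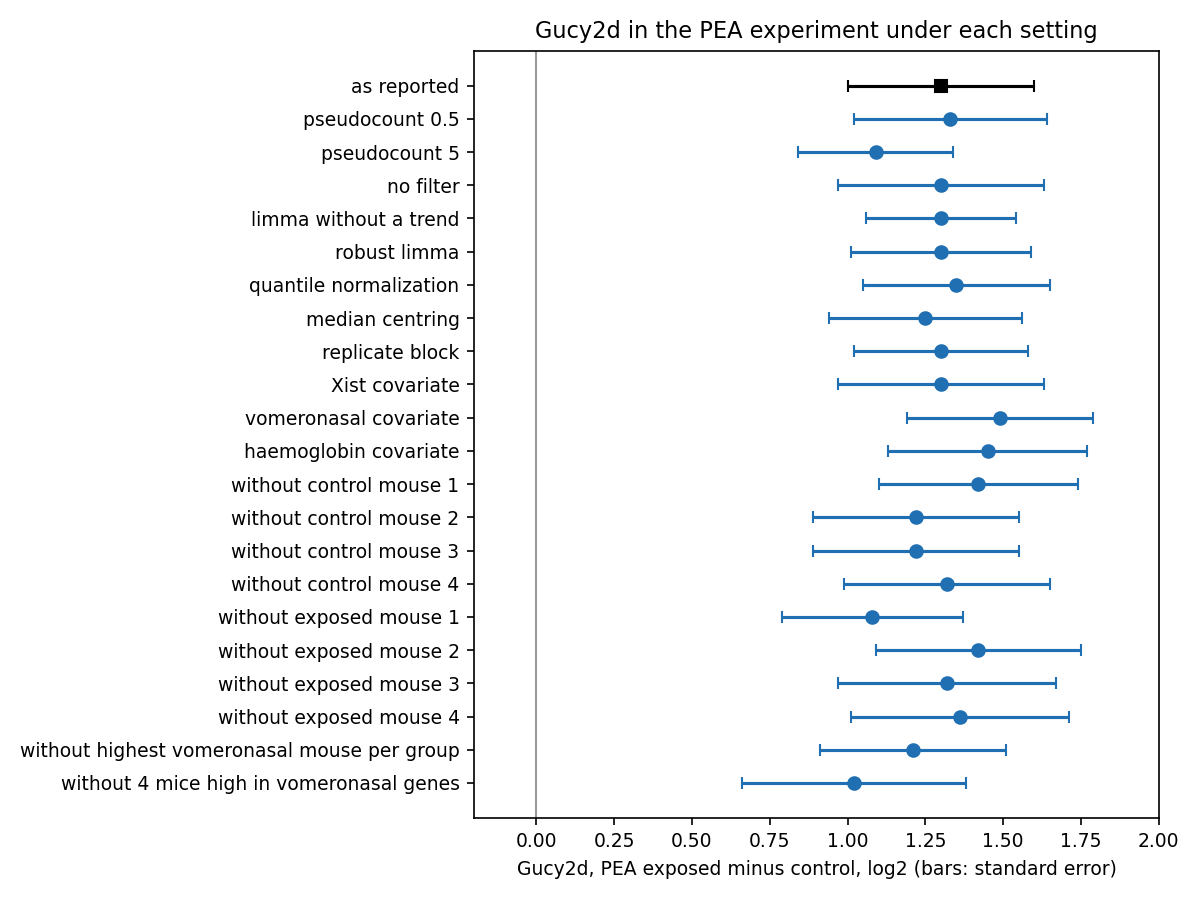
Log2 difference in Gucy2d between PEA-exposed and control mice (horizontal axis; points, with bars for the standard error) as reported and under each other setting in which Gucy2d was tested. The filter at a mean of at least 50 left it out. All values lie to the right of 0, between 1.02 and 1.49.

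In the Kir2.1 experiment Gucy2d did not separate the groups. The controls had 259, 230 and 238 normalized counts, and the Kir2.1 mice had 159, 172 and 271. Kir2.1 mice 1 and 2 were below every control, and mouse 3 was above every control. Its log2 difference was -0.31 with a limma SE of 0.21 and a 95% interval of -0.81 to 0.19 (adjusted p = 0.68; exact permutation p = 0.4, where 0.1 is the smallest that 3 against 3 allows). Without Kir2.1 mouse 3 the log2 difference was -0.55 (limma SE 0.14, adjusted p = 0.238), and without Kir2.1 mouse 1 it was -0.16. With the Xist level as a covariate, which was low in Kir2.1 mouse 3 alone of its group, it was -0.28 (limma SE 0.20). Haemoglobin transcripts also separated the groups, at a mean log2 level of 11.36 to 12.21 in controls and 12.26 to 12.96 in Kir2.1 mice. With that level as a covariate the Gucy2d difference was 0.07 (limma SE 0.34). Because the level does not overlap between the groups, such a fit cannot tell its part from that of Kir2.1, for this or any other gene.

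Pde2a (ENSMUSG00000110195) lies on the plus strand at chr7:101421691-101512827. In the PEA experiment the controls had 116, 114, 99 and 128 normalized counts, and the exposed mice had 201, 125, 183 and 110. Exposed mice 1 and 3 were above every control, and the other two were within the control range. The log2 difference was 0.40, with a limma SE of 0.20 and a 95% interval of -0.05 to 0.85 (adjusted p = 0.389; exact permutation p = 0.2). Without exposed mouse 1 it was 0.26, and without the 4 mice high in vomeronasal RNA it was 0.09 (limma SE 0.33, adjusted p = 0.909).

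For Pde2a in the Kir2.1 experiment the controls had 371, 280 and 381 normalized counts, and the Kir2.1 mice had 422, 375 and 399. Control mouse 2 was the lowest of the 6, and the groups overlapped through Kir2.1 mouse 2. Pde2a thus differed by 0.22 on the log2 scale (limma SE 0.14, 95% interval -0.11 to 0.56, adjusted p = 0.653; exact permutation p = 0.2), and without control mouse 2 it was 0.08. With the haemoglobin level as a covariate it was -0.000506 (limma SE 0.24).

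The direction for Pde2a in the Kir2.1 experiment depended on a second gene model. Gm45837, annotated as protein coding at chr7:101410886-101512819 on the same strand, spans Pde2a and reaches into Arap1, and 95.6% of its exonic bases are also exonic in Pde2a. Of the different 31-base words in the Pde2a transcripts, 63.5% also occur in the Gm45837 transcript, so reads can be assigned to either. Gm45837 had 678, 712 and 646 normalized counts in Kir controls and 370, 522 and 658 in Kir2.1 mice, more than Pde2a itself in each control. It was listed at 0 in all 8 mice of the PEA experiment. Summed, both models came to 1023 ± 28.4 in controls and 915 ± 133 in Kir2.1 mice (SD, n = 3), a log2 difference of -0.17 (limma SE 0.11, adjusted p = 0.677; exact permutation p = 0.4). Kir2.1 mouse 3, with 1057, was above all controls in this sum, and mice 1 and 2, with 792 and 897, were below them. The Kir2.1 mice stood in this order for Gm45837 alone and for Gucy2d, but not for Pde2a alone. Their haemoglobin levels ran in the reverse order (mean log2 12.96, 12.62 and 12.26 in mice 1, 2 and 3). Whether these orders are linked was not tested.

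Cnga3 (ENSMUSG00000026114) lies on the plus strand at chr1:37214434-37263384. The Kir controls had 30.4, 25.8 and 33.2 normalized counts and the Kir2.1 mice 27.7, 35.3 and 41.0. Kir2.1 mice 2 and 3 were above every control, and mouse 1 was inside the control range. The log2 difference was 0.20 (limma SE 0.27, 95% interval -0.43 to 0.83, adjusted p = 0.857; exact permutation p = 0.4).

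In the PEA experiment Cnga3 was near the lower end of what the files can show. The controls had 1.46, 2.49, 10.5 and 2.03 normalized counts and the exposed mice 5.22, 7.15, 8.85 and 2.70. Control mouse 3 was above every exposed mouse, and the other 3 controls were below all of them. Cnga3 differed by 0.66 on the log2 scale (exact permutation p = 0.314). Leaving out single mice gave 0.40 to 1.15, the highest without control mouse 3. As only that mouse broke the order, leaving it out makes the groups separate, and a test then has no weight. With a mean of 5.05 over the 8 mice, a difference could not be resolved at this level.

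Car2 (ENSMUSG00000027562) lies on the plus strand at chr3:14886273-14900770 and is also made in red blood cells and osteoclasts. Per kilobase of exon its mean was 1045 in Kir controls and 301 in PEA controls, against 59 and 3.2 for Gucy2d. What part of the Car2 RNA came from necklace neurons was not tested, so its differences cannot be assigned to these cells. In the PEA experiment the controls had 1013, 640, 716 and 549 normalized counts, and the exposed mice had 1094, 1147, 1112 and 815. Exposed mice 1 to 3 were above every control, exposed mouse 4 was below control mouse 1, and control mouse 1 stood above its group. The log2 difference was 0.54, with a limma SE of 0.19 and a 95% interval of 0.13 to 0.95, or 1.45-fold (limma p = 0.0155, adjusted p = 0.228; exact permutation p = 0.0571). Summed erythroid markers were 1783 to 2816 in controls and 1939 to 3469 in exposed mice, with 0 of 5 tested markers past an unadjusted p of 0.05. Summed osteoclast markers were 998 to 1971 in controls and 895 to 1168 in exposed mice. Markers of some other cell types were higher with Car2. At an unadjusted p under 0.05, where 8.93% of all genes were higher, these were 2 of 4 horizontal basal cell markers (median log2 difference 0.44, summed levels 739 to 908 in controls and 989 to 1162 in exposed mice), 2 of 3 tested microvillar cell markers (median 0.53, 257 to 335 and 308 to 412) and 2 of 5 sustentacular cell markers (median 0.11, 41535 to 48969 and 46117 to 50900). The rest of these lists passed in neither direction. By the same rule 1 of 5 immature OSN markers was higher. Lower were 2 of 5 olfactory ensheathing cell, 1 of 3 tested osteoclast and 6 of 127 tested vomeronasal markers, where 6.04% of all genes were lower. The part of these cell types in the Car2 and Gucy2d values was not tested. With the haemoglobin level as a covariate the Car2 difference was 0.62 (limma SE 0.20). That level averages haemoglobin genes of which Hba-a2 was at 0 to 2.26 normalized counts in this experiment. Part of its spread is thus that of a gene near 0.

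In the Kir2.1 experiment Car2 had 2922, 2292 and 2377 normalized counts in controls and 1934, 2186 and 2196 in Kir2.1 mice. All 3 Kir2.1 mice were below the lowest control. The log2 difference was -0.26, with a limma SE of 0.11, or 0.84-fold with a 95% interval of 0.70 to 1.00 (limma p = 0.0497, adjusted p = 0.447; exact permutation p = 0.1, the smallest possible). Without control mouse 1, the mouse highest in vomeronasal receptor RNA, it was -0.15 (limma SE 0.09, adjusted p = 0.681). Erythroid markers differed in the other direction, with 5 of 6 tested genes higher at an unadjusted p under 0.05, where 4.93% of all genes were. Their median log2 difference was 0.86, with summed levels of 11074 to 20036 in controls and 20323 to 33743 in Kir2.1 mice. With the haemoglobin level as a covariate the Car2 difference was -0.09 (limma SE 0.19).

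**Figure D3:**
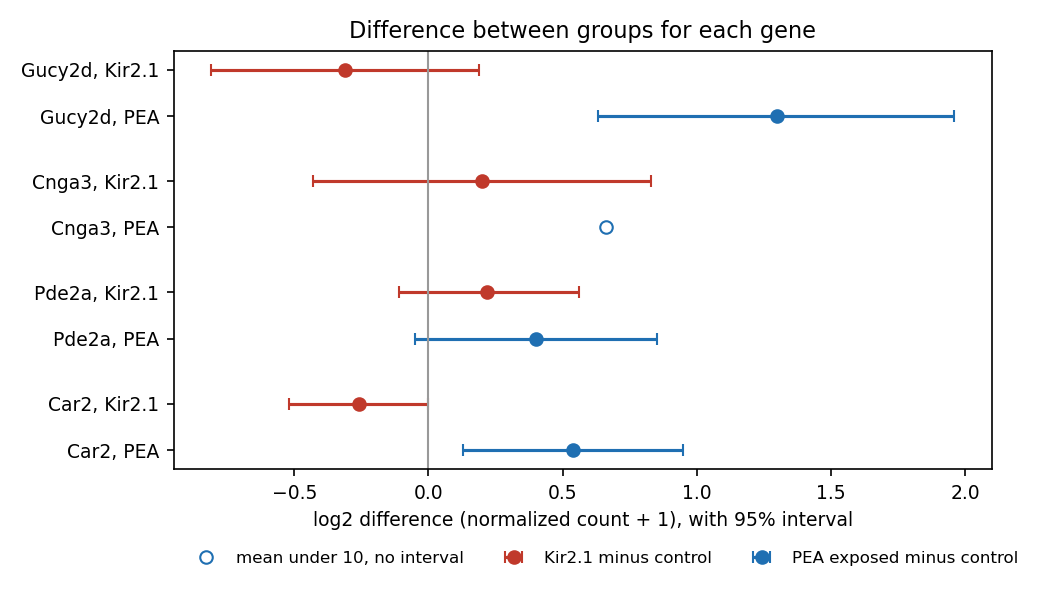
Log2 difference between treated and control mice (horizontal axis, on log2(normalized count + 1)) for each gene, in red for Kir2.1 and in blue for PEA, with 95% limma intervals. The intervals of Gucy2d and Car2 in the PEA experiment lie above 0, that of Car2 in the Kir2.1 experiment ends at 0, and the open point is Cnga3, whose mean was under 10.

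Levels were compared between genes only per kilobase of exon. In Kir controls the order was Car2 (mean 1045 normalized counts per kb), Gucy2d (59.0), Pde2a (56.0) and Cnga3 (7.53), beside 15550 for Omp. Gucy2d at 56.0 to 63.0 per kb and Pde2a at 45.6 to 61.9 overlapped, and the gaps to Car2 and to Cnga3 were wider than the spread between mice. The place of Pde2a depended on Gm45837, since both models summed came to 157 to 166 per kb of their joint exons in Kir controls, above every Gucy2d value. In PEA controls the order was Car2 (301 per kb), Pde2a (18.5), Gucy2d (3.20) and Cnga3 (1.04), beside 3179 for Omp. There Gucy2d at 2.65 to 4.17 per kb lay below every Pde2a value, and above Cnga3 except that control mouse 3 had 2.66 for Cnga3. Values of the 2 experiments stand side by side only, since library type, read length and possibly strain differed between the experiments.

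No pair of the 4 genes had a correlation from mouse to mouse past the adjusted threshold. Over 14 mice, each taken as its log2 deviation from its group mean, Gucy2d and Pde2a had Pearson's r = 0.56 (permutation p = 0.0629, adjusted p = 0.378 over 6 pairs) and Spearman's rho = 0.53 (permutation p = 0.0672, adjusted p = 0.403). Without the 2 mice farthest in Gucy2d, Kir2.1 mouse 3 and PEA-exposed mouse 1, r was 0.42. Of the other 5 pairs, Pearson's r ran from -0.18 for Gucy2d and Cnga3 to 0.39 for Gucy2d and Car2. Within the 6 mice of the Kir2.1 experiment r was 0.10 for Gucy2d and Pde2a (permutation p = 0.861) and turned to 0.76 for Gucy2d and Cnga3 (permutation p = 0.222). Within the 8 mice of the PEA experiment, where Cnga3 was at 1.46 to 10.5 normalized counts, r was 0.71 (permutation p = 0.0712) and -0.33 (permutation p = 0.392). Among 15084 genes tested in both experiments, those with deviations most like Gucy2d were Manf (r = 0.89 over 14 mice), Trub2 (0.86) and Ggps1 (0.85). For Pde2a they were Ptn (0.90), Tubgcp3 (0.88) and Tbc1d22a (0.85), for Cnga3 Rhot2 (0.91), Arhgap22 (0.90) and Mettl25 (0.90), and for Car2 Pwp2 (0.92), Pgm1 (0.90) and Cap1 (0.89). For all of these but Ggps1 (0.91 in the Kir2.1 and 0.83 in the PEA experiment), r was higher within the PEA experiment. The gap was widest for Tbc1d22a (0.24 and 0.94), Rhot2 (0.51 and 0.96) and Pgm1 (0.51 and 0.96). These are the highest of many values and are given as descriptions.

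Other genes of the cyclic GMP pathway were described by lists. Of 10 receptor and soluble guanylyl cyclases, 8 were tested in the Kir2.1 experiment and 7 in the PEA experiment, with 0 called and median log2 differences of -0.03 and -0.05, against 0.0056 and -0.0223 over all genes. Gucy1b2, a soluble cyclase subunit, had the only unadjusted p under 0.05, with 257 to 478 normalized counts in Kir controls and 153 to 180 in Kir2.1 mice (log2 difference -1.08, limma SE 0.22, adjusted p = 0.142). Npr2, the receptor for C-type natriuretic peptide and the cyclase with the highest mean, differed by 0.20 (limma adjusted p = 0.549). The guanylin and uroguanylin genes, Guca2a and Guca2b, were at 0 to 1.92 normalized counts in all 14 mice. Nppc, which encodes C-type natriuretic peptide, was the only ligand gene tested and was at 46.0 ± 8.35 in Kir controls and 26.2 ± 10.7 in Kir2.1 mice (SD, n = 3; log2 difference -0.84, limma adjusted p = 0.415).

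Among calcium sensor genes, Vsnl1, which encodes visinin-like 1, fell in Kir2.1 mice from 1057 ± 19.1 to 593 ± 55.5 normalized counts (SD, n = 3; log2 difference -0.84, limma SE 0.09, adjusted p = 0.0223), the only called gene of 8 tested. The direction held in all 19 alternatives (log2 difference -0.90 to -0.74), but the call was lost in 9 of them, 5 of which left out a single mouse (limma adjusted p 0.017 to 0.721). Its relative Hpcal4 differed by -0.75 (limma SE 0.15, adjusted p = 0.126). After PEA exposure 0 of 5 sensors were called, and Vsnl1 was at 103 ± 6.43 and 79.5 ± 13.6 (SD, n = 4; log2 difference -0.38, limma adjusted p = 0.312).

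Pde2a's relatives were tested for 20 of 23 genes in the Kir2.1 experiment, where Pde1c, the calcium-dependent phosphodiesterase of OSN cilia, fell from 4351 ± 154 to 2772 ± 168 (SD, n = 3; log2 difference -0.65, limma SE 0.07, adjusted p = 0.0223) and was the only one called. The Pde1c call was lost in the same 9 alternatives (limma adjusted p 0.0133 to 0.721), with log2 differences of -0.69 to -0.60. Pde1a differed by -0.52 (limma adjusted p = 0.349) and Pde4d by 0.47 (limma adjusted p = 0.109). After PEA exposure 0 of 18 were called, and Pde1a differed by -0.78 (limma SE 0.25, adjusted p = 0.204).

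Cnga3's relatives in the cyclic AMP pathway differed by more than Cnga3 in the Kir2.1 experiment, although the contrast between them was not tested. Of the 4 other channel subunits tested, Cnga2, Cnga4 and Cngb1 were lower at an unadjusted p under 0.05, where 6.2% of all genes were. They differed by -0.34, -0.42 and -0.35 on the log2 scale, and 0 were called (limma adjusted p = 0.243, 0.132 and 0.142). Of the 12 canonical cyclic AMP transduction genes, 11 were lower by that rule, beside the same 6.2% of all genes. Only Pde1c was called, with the losses given above, and the median log2 difference was -0.40. In PEA-exposed mice 0 of these 12 were called, their median was -0.07, and Gnal, the olfactory G protein, differed by -0.37 (limma adjusted p = 0.165). Mature OSN markers, which share 6 genes with this list, summed to 123769 to 138158 normalized counts in Kir controls and 90993 to 103522 in Kir2.1 mice. Of these markers 8 of 8 were lower at an unadjusted p under 0.05, again beside 6.2% of all genes. Their part in the pathway values was not tested.

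Of Car2's relatives, 12 of 15 carbonic anhydrases were tested in the Kir2.1 experiment and 11 in the PEA experiment, with 0 called, 0 at an unadjusted p under 0.05 and medians of 0.01 and -0.12. Prkg1 and Prkg2, the cyclic GMP-dependent protein kinases, differed by 0.07 and -0.23 in the Kir2.1 experiment and by -0.25 and -0.02 in the PEA experiment (0 called). The Ms4a family encodes chemosensory proteins of necklace neurons, and several members are also made in immune cells. Only 6 of its 21 genes were tested in the Kir2.1 experiment and 4 in the PEA experiment, with 0 called. Ms4a6b and Ms4a6d differed by 0.73 and 0.59 in Kir2.1 mice (limma adjusted p = 0.443 and 0.439), and Ms4a6c by 0.59 in PEA-exposed mice (limma adjusted p = 0.321). Summed macrophage markers were at 1656 to 2563 in Kir controls and 2339 to 2741 in Kir2.1 mice, and their part in the Ms4a values was not tested.

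**Figure D4:**
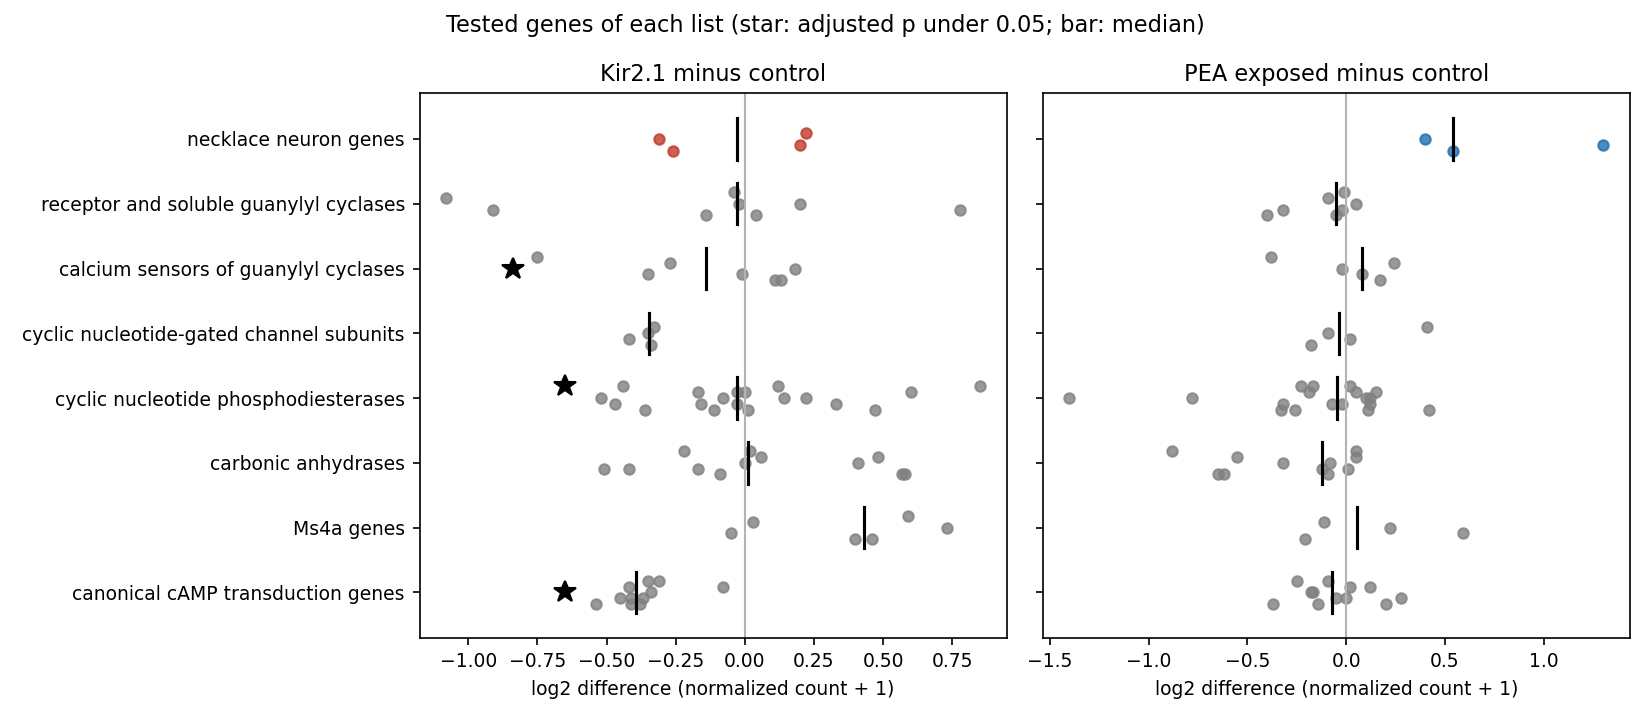
Log2 difference of each tested gene (horizontal axes, on log2(normalized count + 1); points) in the lists named at the left, for Kir2.1 (left panel) and PEA exposure (right panel), with vertical bars for the median and stars for genes with an adjusted p under 0.05. The stars are Vsnl1 and Pde1c, which stands in 2 lists, and the necklace neuron genes lie at both sides of 0 for Kir2.1 and above 0 for PEA.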

How the data were processed

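Whole olfactory epithelia of 14 mice at P5 were profiled by bulk RNA sequencing. The methods describe poly-A selected, unstranded 40 bp reads for the Kir2.1 experiment and rRNA-depleted, stranded 150 bp reads for the PEA experiment. The authors estimated transcript counts with Salmon 1.3.0 (31-base words, a setting for reverse-stranded reads; GRCm38), summed them per gene and normalized them with DESeq2 1.30.0. The deposited tables hold a signal of this kind for each gene, from which whole reads could not be recovered. All columns of values were matched to mice by label, and each table was tested separately.

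The members and gene lists were chosen with earlier results of these data known. Values were tested as log2(value + 1) with limma 3.58.1 (trend) in R 4.3.3 on genes with a mean of at least 10, without a block, and single genes by exact two-sided permutation. The limma script was tested on simulated data. Named genes were the 4 members, Kcnj2 and Omp, the 3 genes most like each member, and per list the called genes, up to 4 with the largest difference at an unadjusted p under 0.05 and the gene with the highest mean, of which the text gives those its results turn on. Positions are from GENCODE vM21 and upstream sequences from RefSeq (GRCm38.p6). Alternatives were other pseudocounts, filters, limma settings and scalings, covariates (Xist, vomeronasal and haemoglobin levels), a replicate block, and each mouse left out. Leaving out mice high in vomeronasal RNA and summing Pde2a with Gm45837 were chosen after seeing the data.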

Additional observations from a re-analysis of the deposited data

Results flagged for a closer look

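Over the 30 genes named for the PEA experiment, 60 groups of 4 mice were examined by Dixon's test. Its ratio divides the gap of a mouse to the nearest other by the range of the group. In 3 groups the ratio exceeded the 95% critical value, and 3 of 60 is about the 1 in 20 that chance alone gives. Cnga3 was at 10.5 normalized counts in PEA control mouse 3, with the other controls at 1.46 to 2.49. Arhgap22, whose deviations were among the most like those of Cnga3, was at 20.4 in the same mouse, with the other controls at 5.69 to 7.84. Arhgap22 was named for this likeness, so its flag in the same mouse is not separate from that of Cnga3. Car2 was at 815 in PEA-exposed mouse 4, with the other exposed mice at 1094 to 1147.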

How the results depend on the processing

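No member passed the adjusted threshold under any alternative run. For Gucy2d in the PEA experiment the log2 difference ran from 1.02 to 1.49 over 21 alternatives (limma adjusted p 0.109 to 0.259). The filter at a mean of at least 50 left Gucy2d untested. Car2 ran there from 0.41 to 0.88 and Pde2a from 0.09 to 0.55, its lowest value without the 4 mice high in vomeronasal RNA. In the Kir2.1 experiment Car2 ran from -0.33 to -0.09 and Cnga3 from 0.08 to 0.35. With the haemoglobin level as a covariate Gucy2d was at 0.07 (limma SE 0.34) and Pde2a at -0.000506 (limma SE 0.24), both smaller than their SE. That level did not overlap between the Kir2.1 groups, so these fits cannot tell its part from that of Kir2.1. Summed with Gm45837, Pde2a turned to -0.17, and the sum adds reads of a second gene model. The correlation of Gucy2d and Cnga3 was 0.76 within the 6 mice of the Kir2.1 experiment.

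Counts of called genes moved more. From 70 in the Kir2.1 experiment they went to 20 without a trend, 44 with Xist, 23 with the vomeronasal level and 3 with the haemoglobin level as a covariate, and 23 to 44 without single mice, whichever of the 6 was left out. From 31 in the PEA experiment they went to 52 with no filter, 20 and 17 with the vomeronasal and haemoglobin levels, 49 without the 4 mice high in vomeronasal RNA, and 19 to 43 without single mice, the lowest without exposed mice 2, 3 or 4. Of 57 recomputed counts for the 3 lists with a called gene in the Kir2.1 experiment, 28 moved. Vsnl1 and Pde1c each lost their call in 9 of 19 alternatives, namely without a trend, with the block, with the vomeronasal or haemoglobin level, and without any 1 mouse other than Kir2.1 mouse 3. The cause of these moves was not tested.

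With the replicate number as a block, 9 genes were called in the Kir2.1 experiment and 23 in the PEA experiment, and Gucy2d in the PEA experiment stayed at 1.3 (limma adjusted p = 0.16). The numbers are not known to pair the mice. Correlations between mice sharing a number ran from -0.06 to 0.16 in the Kir2.1 experiment and from -0.05 to 0.13 in the PEA experiment. Some mice but not all correlated best with their own number, and such correlations over all genes cannot exclude a pairing. Leaving out a mouse leaves groups of 2 or 3, and at Cnga3's level in the PEA experiment a difference could not be resolved.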
